A study of Mus musculus with 18 samples.

Results

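The genes described here encode 10 apolipoproteins of the liver: Apoa1, Apoa2, Apoa4, Apoa5, Apob, Apoc1, Apoc2, Apoc3, Apoe and Apom. They were listed by gene symbol and not by a cut on any measured value, although earlier results of these data were known. They come from 52230 genes to which the transcripts of the deposited tables could be joined. All 10 were among the 10938 genes that held at least 10 counts in at least 4 libraries and were tested. Liver RNA was sequenced from 18 mice of the strain GCKR-P446L-EMI-B6N, a knock-in line in which the proline at residue 446 of GKRP, the regulatory protein of glucokinase encoded by Gckr, is replaced by leucine. Mice labelled Gckr-446P (PP) kept the proline and mice labelled Gckr-446L (LL) carried the leucine. Among males 4 mice were PP and 4 were LL, and among females 5 were PP and 5 were LL, each giving 1 library, and all were on standard chow. The labels gave ages of 9 to 14 weeks for male PP, 13 to 14 weeks for male LL, 9 to 14 weeks for female PP and 11 to 14 weeks for female LL. The design text of the series puts all mice at 14 weeks, and the conflict was not resolved, the ages of the labels being used here. The counts per gene do not separate the codons of the PP and LL alleles and therefore gave no check of the genotype labels.

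Apolipoproteins are the protein coat of the particles that carry triglyceride and cholesterol in blood. Apob is the backbone of the triglyceride-rich particles that the liver secretes, Apoa1 and Apoa2 are the main proteins of high-density lipoprotein, and the small C apolipoproteins and Apoe move between particles. On the particle surface Apoc2 switches on lipoprotein lipase, Apoc3 and Apoc1 slow lipolysis and uptake, Apoa5 favours lipolysis, and Apoe is a ligand for the receptors that clear remnant particles. Apoa4 is best known as an intestinal protein of chylomicrons and is also made by rodent liver, and Apom is a lipocalin that carries sphingosine phosphate on high-density lipoprotein.

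In the annotation of build GRCm39 most of the genes lay in a pair of neighbourhoods. On chromosome 9, Apoa1 (46139878 to 46142212, plus strand), Apoc3 (46142527 to 46146934, minus strand), Apoa4 (46151994 to 46154757, plus strand) and Apoa5 (46179931 to 46183217, plus strand) lay within 43340 bases. On chromosome 7, Apoc2 (19405504 to 19411877), Apoc1 (19422540 to 19427328) and Apoe (19430034 to 19434947) lay on the minus strand within 29444 bases. Apoc4 and Apoc2l lay there too, and Apoc2l overlaps both Apoc2 and Apoc4 on the same strand. Apoa2 was on chromosome 1 (171049125 to 171053948, plus strand), Apob on chromosome 12 (8027648 to 8066835, plus strand) and Apom on chromosome 17 (35347973 to 35351026, minus strand).

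The bases upstream of Apoa4 and of its plus-strand neighbours Apoa1 and Apoa5 are shown because Apoa4 was the gene of the family called by genotype in males while the neighbours were not. They were read from the GRCm39 genome on the plus strand, 5′ to 3′, up to the base before the first exon, and cover chr9:46151744-46151993 for Apoa4, chr9:46139628-46139877 for Apoa1 and chr9:46179738-46179930 for Apoa5. Capitals mark matches on either strand to the TATA box letters TATAAA, the E-box CACGTG, the nuclear receptor core AGGTCA or the cyclic AMP element core TGACG.
Apoa4: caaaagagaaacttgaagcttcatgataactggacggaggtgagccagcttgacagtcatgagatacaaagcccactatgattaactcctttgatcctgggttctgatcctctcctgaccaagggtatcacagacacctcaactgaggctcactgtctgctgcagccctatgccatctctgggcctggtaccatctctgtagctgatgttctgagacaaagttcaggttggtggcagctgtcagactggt
Apoa1: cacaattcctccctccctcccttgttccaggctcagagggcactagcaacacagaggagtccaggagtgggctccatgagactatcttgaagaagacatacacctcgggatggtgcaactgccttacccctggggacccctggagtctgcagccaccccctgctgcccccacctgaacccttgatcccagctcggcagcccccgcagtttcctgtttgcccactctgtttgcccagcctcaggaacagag
Apoa5: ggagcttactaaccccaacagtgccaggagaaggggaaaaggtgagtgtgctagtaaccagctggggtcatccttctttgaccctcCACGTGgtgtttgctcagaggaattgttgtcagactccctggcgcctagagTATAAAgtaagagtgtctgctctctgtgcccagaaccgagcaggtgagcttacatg
The Apoa4 and Apoa1 windows held no match to these letters, and the Apoa5 window held 1 TATAAA and 1 CACGTG. The Apoa1 window precedes its transcript of 1035 bases, which held 54.2% of the Apoa1 counts on average. The other Apoa1 transcript, of 602 bases and 45.8%, starts inside the gene at 46140019, and the bases before that start were not examined. In the 250 bases before the start of its most abundant transcript, Apoc3 held 1 TATAAA and 2 matches to AGGTCA, but 184 of these bases are exonic in other Apoc3 transcripts and are not shown. Of the 250-base windows before the starts of 10937 tested genes, 8.83% held TATAAA, 7.08% held CACGTG, 12.7% held AGGTCA and 20.7% held TGACG, and a match is a description of these letters only.

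Total estimated counts were 3794671 to 6613905 per library, of which the 10 genes took 2.16% to 5.03%. Hepatocyte markers dominated every library, with summed normalized counts of 521201 to 926990, and all 6 markers of each of Kupffer, sinusoidal endothelial and stellate cells were detected. Summed cholangiocyte markers reached at most 137, lymphocyte and neutrophil markers 76.5, pancreatic acinar markers 111 and adipose markers 45.5, with Ctrb1 of pancreas and Adipoq and Lep of adipose tissue at 0 in every library. Mitochondrial transcripts took 8.51% to 17.9% of counts, the highest share being in male LL 1. In bulk liver, fewer cells of a type and less RNA per cell cannot be told apart. The libraries differed in fragment length, taken as the transcript length less Salmon's effective length. In females the mean fragment was 448 ± 108 bases for the PP and 292 ± 52.1 bases for the LL genotype (SD, n = 5 each, two-sided exact permutation P = 0.0159). In males it was 518 ± 95.7 bases for the PP and 407 ± 156 bases for the LL genotype (SD, n = 4 each, exact permutation P = 0.286, smallest possible 0.0286). Transcripts of the family run from a mean of 444 bases for Apoc1 to 7896 bases for Apob, and the genotype results are therefore also given with fits that take length into account.

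Per transcript length Apoa2 was the most and Apoa4 the least abundant of the 10 genes. Over the 18 livers mean TPM (the length-scaled share of transcripts that Salmon gives) was 26236 for Apoa2, 17296 for Apoc1, 13668 for Apoe, 6601 for Apoa1, 5906 for Apoc3, 1035 for Apoa5, 830 for Apob, 306 for Apoc2, 108 for Apom and 38.4 for Apoa4. By group mean, Apoa2, Apoc1 and Apoe held the first 3 places in every group, followed by Apoa1 and Apoc3, then Apoa5 and Apob, then Apoc2, Apom and Apoa4 in this order. Within the first 3 of these blocks the order differed between groups or rested on overlapping ranges. Ranges of single mice also overlapped across blocks, among them those of Apoe and Apoa1 in male LL and of Apoa5 and Apoc2 in male PP and male LL. In the last block Apoc2 and Apom overlapped in female PP. Apoc1 led Apoa2 in male PP (15885 ± 10466 against 15680 ± 8632, SD, n = 4) with overlapping ranges, and the ranges also overlapped in male LL. In both female groups every Apoa2 value lay above every Apoc1 value. The ranges were 20773 to 26934 against 13856 to 19102 in female PP, and 29957 to 48620 against 19737 to 26039 in female LL. Apoc3 stood above Apoa1 in female LL without overlap (7644 to 9849 against 4718 to 6981), and below it with overlap in the other 3 groups. This order rests on the length scaling of TPM. In normalized counts, which are not divided by length, female LL mice had 9841 to 13736 for Apoc3 and 12686 to 26814 for Apoa1. The lowest gene, Apoa4, was separated from Apom in male PP (7.63 to 19.3 against 34.0 to 127) and in female PP (23.1 to 50.04 against 131 to 223), but overlapped with it in male LL and female LL.

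**Figure D1:**
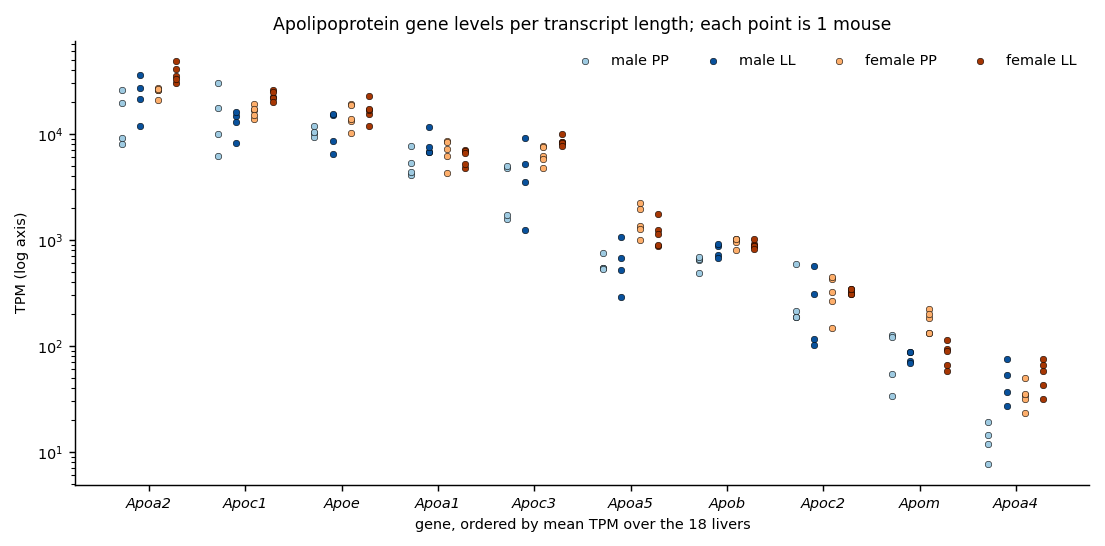
TPM of each apolipoprotein gene on a log axis, with 1 point per mouse and the 4 groups side by side, males before females and PP before LL. Mean TPM falls from 26236 for Apoa2 to 38.4 for Apoa4, and the male PP points of Apoa4 lie below those of every other group.

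By LL genotype in males, Apoa4 rose 2.72-fold and no other apolipoprotein gene passed the test. The normalized counts of Apoa4, which are gene counts divided by the size factor of the library, were 147, 207, 237 and 261 in the 4 male PP livers and 390, 815, 705 and 416 in the 4 male LL livers. Every male LL mouse thus stood above every male PP mouse. On the log2 scale this was 1.45 ± 0.29 (SE, adjusted P = 0.000723 by the Wald test of DESeq2). With 1 of 10 members called the background was 0.283% of the 10938 genes tested, of which 3301 had an adjusted P and could be called. With 1 of 10 members free of overlap between male LL and male PP the background was 4.07%. The median log2 fold change was 0.06 over the 10 genes and 7.51e-05 over all genes.

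The Apoa4 difference was of like size in the fits that account for length, at 1.52 with the effective length as an offset (adjusted P = 0.00436) and 1.45 with fragment length as a term (adjusted P = 0.00624). The male with the highest Apoa4 count, male LL 2 with 815, also had the shortest fragments of all libraries at 202.9 bases, and without it the log2 fold change was 1.24 (adjusted P = 0.0188). The call was lost with edgeR's quasi-likelihood test (log2 fold change 1.44, adjusted P = 0.153) and with limma on log2(TPM + 1) (1.75, adjusted P = 0.0674), and was kept in the other 29 of 31 alternatives, all of which used DESeq2, the fit with age as a term among them. In this comparison edgeR called 3 and limma 0 of all genes tested. Of the 31-base words of the Apoa4 transcript 64.5% also occur in other genes, and the overlapping antisense genes Gm10680 and Gm47528 were listed at 0 and at no more than 10 counts in every library. As intestine is a main source of Apoa4, markers of that tissue were examined beside it. Sis, Lct, Alpi, Cdx2 and Vil1 did not exceed 2.72 normalized counts in any liver. Fabp2, a fatty acid binding protein that liver also expresses, made up nearly all of the summed intestinal markers, which were 145 to 318 in male PP and 297 to 377 in male LL. The log2 fold change of Fabp2 was 0.45 ± 0.22 (adjusted P = 0.417), and its part in the Apoa4 result was not tested. Summed Kupffer cell markers were 416 to 1070 in male PP and 366 to 687 in male LL, and summed stellate cell markers 385 to 820 and 715 to 1017. None of the 12 genes was called. An unadjusted P under 0.05 was found for 4 of 6 Kupffer and 3 of 6 stellate cell markers, against 7.81% of all genes. It was also found for 3 of 10 hepatocyte markers, for 0 of 6 sinusoidal endothelial and for 0 of 5 red blood cell markers. Summed hepatocyte markers were 521201 to 632279 in male PP and 590842 to 704444 in male LL, with none called. Their part was not tested either.

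**Figure D2:**
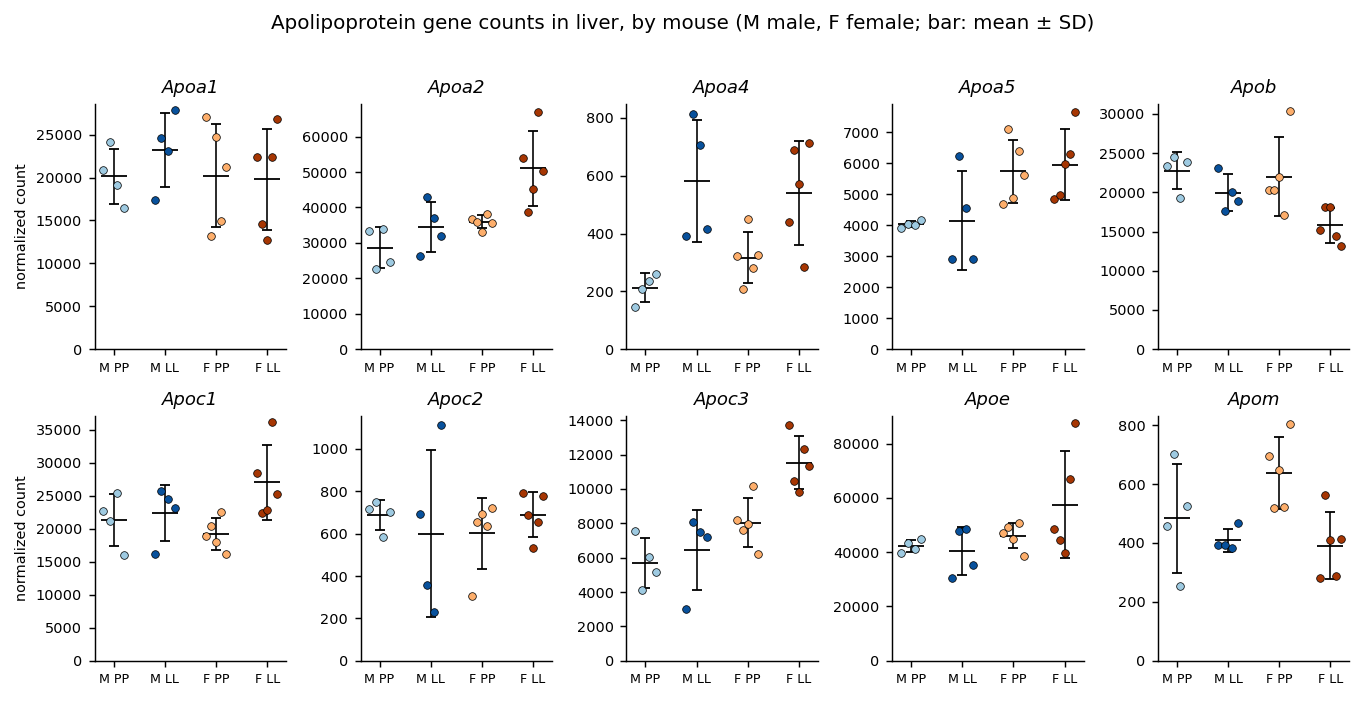
Normalized counts of the 10 genes, 1 point per mouse, with the mean and SD of each group as a bar (n = 4 in the male and 5 in the female groups) and axes from 0. The male LL points of Apoa4 (390 to 815) all lie above the male PP points (147 to 261), and the female LL points of Apoa2 and Apoc3 reach the highest values of those genes.

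The other 9 genes had log2 fold changes between -0.24 (Apom) and 0.27 (Apoa2) in male LL against male PP, none with an adjusted P under 0.618. Among the proteins of high-density lipoprotein, Apoa1 counts were 16482 to 24163 in male PP and 17423 to 27818 in male LL (log2 fold change 0.20 ± 0.25), and Apoa2 counts were 22706 to 34006 and 26295 to 42831 (0.27 ± 0.18). Apob, the backbone of secreted particles, was at 19324 to 24522 in male PP and 17646 to 23141 in male LL (-0.19 ± 0.16). These ranges overlapped for each gene. Apoa5, which favours lipolysis, was nearly the same in the 4 male PP livers (3912, 4052, 4019 and 4153) and spread widely in male LL (2917, 6225, 4548 and 2897), on both sides of the male PP values. Apoc2, the lipase cofactor, behaved likewise, with 584 to 748 in male PP and 695, 358, 231 and 1113 in male LL (log2 fold change -0.20 ± 0.33). Apoc2 shares 45.9% of its 31-base words with other genes, mostly Apoc2l. With the counts of both genes added the range was 690 to 814 in male PP and 703 to 1120 in male LL. Male Apoc1 counts were divided between transcripts in an uneven way, a transcript of 532 bases holding 0.0586% to 94.4% of them in male LL and at most 3.24% in the other groups. In the fits without length the remaining differences were 0.07 ± 0.18 for Apoc1, 0.18 ± 0.24 for Apoc3 and -0.06 ± 0.21 for Apoe. With the length offset and with the fragment length term, in that order, the log2 fold change of Apoa5 turned from 0.04 to -0.33 and -0.26, and that of Apoc1 to -0.76 and -0.04. The other values kept their sign, at 0.30 and 0.20 for Apoa1, 0.19 and 0.11 for Apoa2, -0.02 and -0.13 for Apob, -0.34 and -0.08 for Apoc2, 0.15 and 0.06 for Apoc3, -0.23 and -0.22 for Apoe and -0.37 and -0.17 for Apom. None of these 9 genes was called by either fit.

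By LL genotype in females no apolipoprotein gene passed the DESeq2 test, although 6 of the 10 had an unadjusted P under 0.05 against 13.0% of all genes. The background of calls in this comparison was 0.658% of the 10938 genes, of which 8598 had an adjusted P. The median log2 fold change was 0.26 over the 10 genes and 0.01 over all genes. Neither edgeR nor limma called any of the 10, but over all genes they called only 3 and 0, so this result says little about the members. Apoa2 was the only member without overlap between female LL and female PP, where the background was 2.66%. It was at 36752, 35879, 33193, 38163 and 35641 in female PP and at 53989, 38630, 45288, 67014 and 50325 in female LL. Their coefficients of variation were 5.06% (female PP) and 20.8% (female LL), and the lowest female LL mouse lay just above the highest female PP mouse. The log2 fold change was 0.51 ± 0.16 (adjusted P = 0.0795).

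The log2 fold changes of the small C apolipoproteins were positive in female LL. Apoc1 was at 16166 to 22506 in female PP and at 22395 to 36114 in female LL, with 4 of 5 LL mice above the highest PP mouse (0.49 ± 0.16, adjusted P = 0.0983). Apoc3, the lipase inhibitor, was at 6208 to 10184 and at 9841 to 13736, again with 4 of 5 LL mice above (0.52 ± 0.22, adjusted P = 0.224). Apoc2 was at 306 to 720 in female PP and at 531 to 793 in female LL (0.20 ± 0.30, adjusted P = 0.812). The mouse at 306 stood apart from the other 4 female PP mice (635 to 720), and with Apoc2l added the female PP range was 652 to 815. The 5 female PP mice held Apoe at 38671 to 50683, and 2 female LL mice stood above that range, at 66828 and 87453, while the other 3 were at 39676 to 48426 (0.32 ± 0.19, adjusted P = 0.419). Apoa4 was at 321, 208, 450, 280 and 326 in female PP and at 440, 689, 572, 283 and 715 in female LL. Only 3 of the 5 female LL mice stood above the highest female PP mouse (0.77 ± 0.26, adjusted P = 0.116).

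The log2 fold changes of Apob and Apom were negative in female LL. Apob was at 20302, 20263, 21893, 17041 and 30404 in female PP and at 15210, 18101, 18133, 14451 and 13116 in female LL, with 3 of 5 LL mice below every PP mouse (-0.48 ± 0.14, adjusted P = 0.0722). Apom was at 519 to 805 in female PP and at 281 to 561 in female LL, with 4 of 5 LL mice below every PP mouse (-0.71 ± 0.23, adjusted P = 0.0874). Apoa1 was at 13168 to 27063 and at 12686 to 26814 (-0.03 ± 0.22), and Apoa5 at 4679 to 7099 and at 4833 to 7654 (0.05 ± 0.19), with ranges that overlapped widely. The sign of the Apoa5 value turned with the length offset (-0.29), the fragment length term (-0.28) and limma on TPM (-0.39). Summed Kupffer cell markers were 769 to 951 in female PP and 460 to 741 in female LL, summed sinusoidal endothelial markers 325 to 612 and 254 to 436, summed red blood cell markers 1282 to 2275 and 1125 to 6056, and summed hepatocyte markers 824496 to 926990 and 703766 to 832890. Of the 6 endothelial markers 4 had an unadjusted P under 0.05, as had 3 of 5 tested red blood cell markers. The counts were 2 of 6 for Kupffer cell and 2 of 10 for hepatocyte markers, against 13.0% of all genes. No marker of these 4 lists was called by genotype in females, and their part in these differences was not tested.

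Calls in females turned on single libraries and on the samples fitted. With the 2 female groups fitted alone Apoa2, Apoc3 and Apom were called (0.50, 0.52 and -0.71). Without female PP 4, Apoa2, Apob, Apoc1 and Apom were called (0.53, -0.56, 0.56 and -0.77). Without female LL 2, Apoa2, Apob and Apom were called (0.59, -0.53 and -0.87), and without female LL 3, Apoa2, Apob and Apoc1 (0.55, -0.53 and 0.55). Apoa4 was called without female LL 4 (0.93), Apoa2 and Apoc1 without male LL 1 (0.51 and 0.49), and Apom without male PP 3 (-0.71), the last 2 libraries being in neither of the groups compared.

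**Figure D3:**
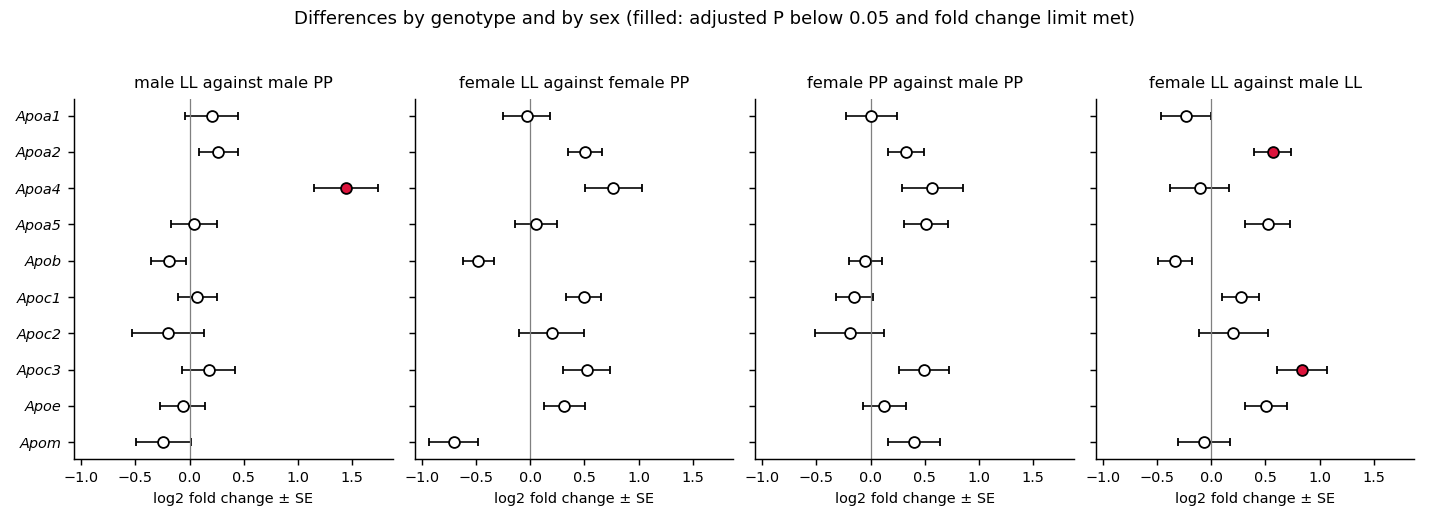
Log2 fold change with its SE for each gene in the 4 comparisons, from the fit over all 18 libraries, with called genes filled. Apoa4 is filled in male LL against male PP (1.45), no gene is filled in female LL against female PP or female PP against male PP, and Apoa2 (0.57) and Apoc3 (0.84) are filled in female LL against male LL.

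The median difference between female groups went from positive to negative with transcript length. Over all tested genes, the median log2 fold change of female LL against female PP was 0.32 for genes with a mean transcript length under 650 bases, 0.17 from 650 to 1500, 0.07 from 1500 to 2500, -0.05 from 2500 to 5000 and -0.17 from 5000 bases. Apoa2, Apoc1, Apoc2 and Apoc3 are in the first of these classes, Apoa1, Apoe and Apom in the second, Apoa4 and Apoa5 in the third, and Apob in the last. The corresponding medians in males were between 0.05 and -0.06. For Apob the log2 fold change in females was 0.01 with the effective length as an offset, -0.39 with fragment length as a term and -0.10 by limma on TPM. Apoa1 had -0.09 with the offset and -0.03 with the term, Apoe 0.26 and 0.10, and Apoc2 0.14 and 0.49. Apoa2 had 0.67 with the offset and 0.29 with the term, Apoc1 0.59 and 0.32, and Apoc3 0.52 and 0.35. Apom, which is short and yet lower in female LL, had -0.94 with the offset and -0.60 with the term, and Apoa4 had 0.76 and 0.77. None of the 10 genes was called in females by either of these fits. As female LL libraries had the shorter fragments, the parts of genotype and of fragment length cannot be told apart in females.

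**Figure D4:**
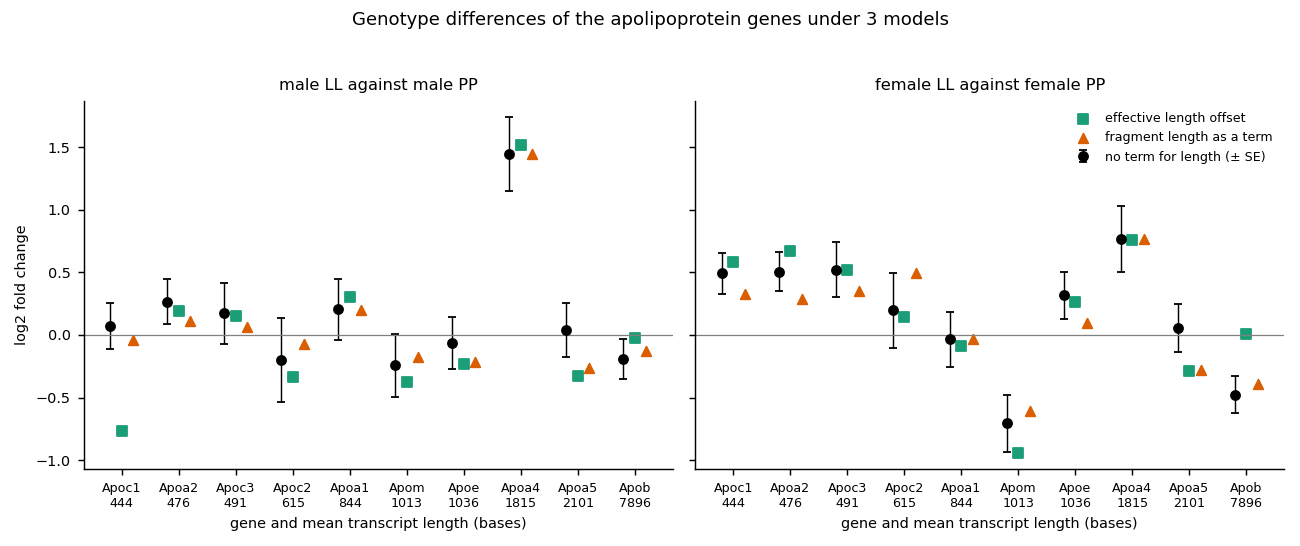
Log2 fold change by LL genotype in males and females, with genes ordered by mean transcript length from Apoc1 (444 bases) to Apob (7896 bases). Circles with SE are the fit without a length term, squares come from the effective length offset and triangles from the fragment length term. In females the Apob circle at -0.48 and square at 0.01 lie far apart, while those of Apoa4 lie at 0.77 and 0.76.

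**Figure D5:**
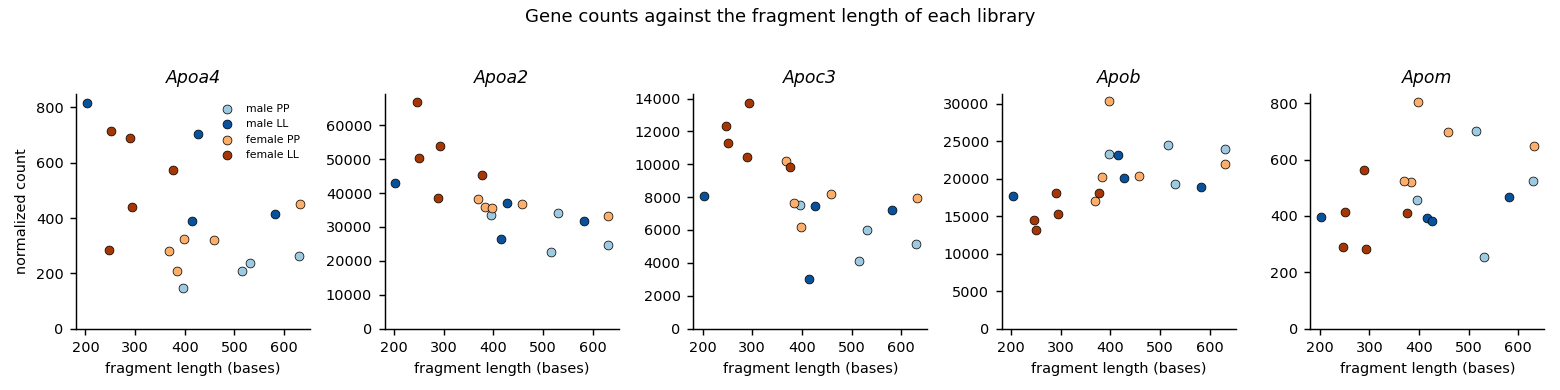
Normalized counts of Apoa4, Apoa2, Apoc3, Apob and Apom against the fragment length of the library in bases, 1 point per mouse, coloured by group. Female LL libraries (247 to 377 bases) sit at the short end and hold the highest Apoa2 and Apoc3 counts, and the male PP points of Apoa4 are at most 261 over fragment lengths of 396 to 630 bases.

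Whether the genotype difference itself differed between the sexes was tested as an interaction. It was called for 0.119% of the 10938 genes, of which 1606 had an adjusted P, and for none of the 10. None of the 10 had an unadjusted P under 0.05, against 5.67% of all genes. Neither edgeR nor limma called any of the 10, and limma called 0 of all genes. For Apoa4 the interaction, the female less the male log2 fold change, was -0.68 ± 0.39 (adjusted P = 0.572). For Apoc1 and Apom the interaction was 0.42 ± 0.24 and -0.46 ± 0.34 (adjusted P = 0.572 and 0.715). The call of Apoa4 in males and the lack of a call in females therefore do not show a difference between the sexes.

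Between the sexes Apoc3 and Apoa2 were higher in female LL than in male LL, and no member was called by DESeq2 between female PP and male PP. In LL mice 5 of the 10 had an unadjusted P under 0.05 against 20.0% of all genes. These 2 comparisons use the same mice as the genotype comparisons and are not independent of them. Apoc3 was at 3007, 8077, 7471 and 7198 in male LL and at 9841 to 13736 in female LL, without overlap (log2 fold change 0.84 ± 0.23, adjusted P = 0.00821). Apoa2 was at 26295 to 42831 in male LL and at 38630 to 67014 in female LL, with 4 of 5 females above the highest male (0.57 ± 0.17, adjusted P = 0.0179). The background of calls was 6.12%, and that of genes without overlap 8.16%. The Apoc3 call ended with limma on TPM, the effective length offset and the fragment length term (log2 fold changes 1.15, 0.44 and 0.73, adjusted P = 0.159, 0.720 and 0.0571). The Apoa2 call ended in 10 of 31 alternatives, among them those without female LL 1, female LL 4, male LL 1 or male LL 4 (0.54, 0.45, 0.45 and 0.53), with edgeR (0.56) and with the length offset (0.26). Conversely, Apoa1 was called lower with the offset (-0.77), Apoe higher without female LL 3 (0.61) and Apoa5 higher without male LL 2 (0.78).

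In female PP against male PP, 3 members had an unadjusted P under 0.05 against 17.5% of all genes and none was called by DESeq2 or edgeR, where 6.45% of genes were. Apoa5 was the only member without overlap, at 3912 to 4153 in male PP and 4679 to 7099 in female PP (0.51 ± 0.20, adjusted P = 0.123), with a background of 9.74%. It was called without male LL 2 (0.51) and with the 2 groups alone (0.51). Its antisense neighbour Gm47544 shares 16.6% of its words, and with both counts added the groups overlapped (4779 to 5846 and 5651 to 8403). Apoc3 was at 4111 to 7531 in male PP and 6208 to 10184 in female PP (0.49 ± 0.23, adjusted P = 0.222), and was called without male LL 1 (0.49). Apoa4 was higher in 4 of 5 female PP mice than in any male PP mouse (0.57 ± 0.28, adjusted P = 0.259). In LL mice Apoa4 ranged over 390 to 815 in males and 283 to 715 in females (-0.11 ± 0.28, adjusted P = 0.883).

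The sex comparisons depended on scaling. With size factors from total counts the median log2 fold change of all genes was 0.37 in PP and 0.23 in LL mice, and with limma on log2(TPM + 1) it was 0.50 and 0.20. Apoa2, Apoa4, Apoa5, Apoc3 and Apom were then called in female PP against male PP by total counts, and Apoa4, Apoa5, Apob and Apom by limma. Of the 10938 genes tested, total counts called 2783 and limma 4307 in the same comparison, so these calls do not set the members apart. The log2 fold change of Apob was 0.63 by limma, beside the shift of 0.50, and -0.05 by DESeq2. Alb, serum albumin and the most abundant hepatocyte marker, was higher in female PP than in male PP (log2 fold change 0.94, adjusted P = 2.23e-17), with a called interaction of -0.61 (adjusted P = 0.0180). Of the other hepatocyte markers Ahsg was higher in females (0.47 in PP and 0.46 in LL mice) and Serpina1c lower (-0.59 and -0.79). Markers of other liver cells moved with sex as well. In PP mice, 5 of 6 stellate cell markers and 3 of 6 sinusoidal endothelial markers were higher in females, with summed stellate counts of 385 to 820 in male PP and 1066 to 1263 in female PP, and summed endothelial counts of 160 to 290 and 325 to 612. In LL mice 1 of 6 and 0 of 6 were called, with stellate sums of 715 to 1017 in males and 786 to 1319 in females and endothelial sums of 245 to 289 and 254 to 436. The Kupffer cell marker Vsig4 was higher in female LL than in male LL (0.85), and the red blood cell marker Alas2 was lower in females in both genotypes (-2.73 and -2.09). Alas2 was the only red blood cell marker called, and the summed list was at 1982 to 5889 in male PP and 1282 to 2275 in female PP but at 967 to 4155 in male LL and 1125 to 6056 in female LL. None of these markers was at 0 throughout, and their part in the differences of the apolipoprotein genes was not tested.

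The other genes of lipoprotein metabolism were examined in 5 lists. By genotype none was called in either sex by DESeq2 among 86 genes tested, with 13 in males and 21 in females at an unadjusted P under 0.05, against 7.81% and 13.0% of all genes. Neither edgeR nor limma called any of them by genotype, where over all genes edgeR called only 3 and limma 0 in each sex. None had a called interaction. A gene without an adjusted P counted as not called. Mttp, which loads lipid onto Apob and was named after its values were seen, was at 1051 to 1150 in male PP, 856 to 1391 in male LL, 1054 to 1449 in female PP and 750 to 1326 in female LL. Its log2 fold change was 0.17 ± 0.18 in males and -0.25 ± 0.16 in females (adjusted P = 0.807 and 0.483). None of 27 regulators of apolipoprotein genes was called by DESeq2 or edgeR in any comparison. Between 1 and 8 had an unadjusted P under 0.05, against 5.67% to 20.0% of all genes. Limma on TPM called 15 of the 27 regulators in female PP against male PP and none elsewhere. In that comparison it called 4307 of the 10938 genes tested. The list holds the liver factors Hnf4a and Creb3l3, also named after their values were seen. Creb3l3, a known activator of Apoa4, was at 1078 to 1245 in male PP and 930 to 1261 in male LL (-0.10 ± 0.13, adjusted P = 0.864).

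Several of these genes differed by sex, where calls over all genes were 6.45% in PP mice and 6.12% in LL mice. Among lipoprotein remodelling genes, 4 of 13 were higher in females in PP mice and 4 of 13 in LL mice, and none was lower. Lipc, hepatic lipase, was at 455 to 669 in male PP and 743 to 995 in female PP (log2 fold change 0.66, adjusted P = 0.000256) and had 0.85 in LL mice (adjusted P = 8.11e-07). Pltp, which transfers phospholipid between particles, had 1.405 and 1.32. Ces1c, a plasma carboxylesterase, had 0.65 and 0.58. Gpihbp1, the endothelial anchor of lipoprotein lipase, was called in PP mice (1.07), and Lcat, which esterifies cholesterol on high-density lipoprotein, in LL mice (0.48).

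Of 14 genes of receptors and uptake, 5 were higher in female PP and 3 in female LL, beside the same 6.45% and 6.12% of all genes. Sdc1, a heparan sulphate proteoglycan that binds remnants, had log2 fold changes of 0.79 and 0.67, and Vldlr, a receptor for triglyceride-rich particles, was at 0 to 2.70 in male PP and 6.39 to 64.5 in female PP, too few counts in males for a fold change to be read. Lipa and Npc2, which act in lysosomes, were called in PP mice (0.67 and 0.62) and Lrp1, a remnant receptor, in LL mice (0.62).

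In assembly and secretion 1 of 19 genes was higher and 1 lower in each sex comparison, a share near that over all genes (6.45% and 6.12%). Tm6sf2, which is needed for lipidation of secreted particles, was at 22.6 to 41.6 in male PP and 75.9 to 164 in female PP (1.77 and, in LL mice, 1.26). Apobec1, which edits Apob mRNA, was lower in female PP (-0.74), and Sort1, a sorting receptor for Apob, in female LL (-1.53). Among 13 other apolipoproteins and particle proteins, Saa4 was lower in females in both genotypes (-1.80 and -1.17) and Clu in female PP (-0.56), whereas Pon1 and Apoc4 were higher in female LL (0.72 and 0.76). Apoc4 lies between Apoc2 and Apoc1, and was at 1296 to 2633 in male LL and 2678 to 4557 in female LL (adjusted P = 0.0120). Apoc2l (19405509 to 19415348) overlaps Apoc4 (19412005 to 19415405) on the same strand, and words shared with Apoc4 were not examined.

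The deposited tables also split each gene into transcripts, and the split varied between libraries in each of the 8 members with more than 1 transcript. Single transcripts ranged over 0% to 100% of the gene in Apoc2, 9.26% to 99.3% in Apoc3, 0.0307% to 85.8% in Apoa2 and 1.92% to 73.9% in Apoe. For Apob a transcript of 2174 bases at the 3′ end of the gene held 54.8% of the estimated counts on average and 20.3% to 73.7% in single libraries. Its share was 52.0 ± 10.1% in male PP, 56.2 ± 10.7% in male LL, 45.8 ± 15.6% in female PP and 64.9 ± 8.97% in female LL (SD, n = 4, 4, 5 and 5), so that it was highest in the group with the shortest fragments. The full transcript of 13934 bases held 39.2% on average. For Apoa1 the longer transcript of 1035 bases held 40.4% to 50.7% of counts in male PP and 56.4% to 77.9% in female PP, without overlap, and the rest was on the shorter one of 602 bases. In LL mice the same shares were 21.4% to 53.7% in males and 48.8% to 84.3% in females. These shares are estimates from overlapping transcripts and were not tested. Apoa4 and Apom have a single transcript each in the files.

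Apoa4 had the widest range of the members over the 18 livers, at 147 to 815 normalized counts, a 5.54-fold range, close to 4.81-fold for Apoc2 and 4.57-fold for Apoc3, with 3.16-fold for Apom and 2.19-fold to 2.95-fold for the other members. Among 5644 genes with a mean of at least 50 counts, those most like it by Pearson correlation of log2 counts over the 18 libraries were 2010003K11Rik (r = 0.85, rho = 0.82), Cpt2 (0.79, 0.72), Tmed5 (0.79, 0.83), Ostf1 (0.78, 0.78) and Egln1 (0.76, 0.72). Cpt2 is a mitochondrial enzyme of fatty acid oxidation and Egln1 a prolyl hydroxylase of the oxygen sensing pathway. The points share their groups and fragment lengths, and the values are a description. The 9 other members had values between -0.43 (Apob) and 0.38 (Apoa2) with Apoa4, and its neighbours Apoa1, Apoc3 and Apoa5 had 0.15, 0.33 and 0.23.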

How the data were processed

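Liver RNA of 18 mice was sequenced, each mouse being 1 library and 1 replicate, grouped by the sex and genotype labels. The authors quantified transcripts with Salmon 1.4.0 on GENCODE mouse transcripts (GRCm39) and deposited, per transcript, the length, the effective length, the estimated count and the TPM. The estimated counts are not scaled between libraries, and the deposited TPM are divided by effective length. Strandedness was not given in the sources used here. Of 139225 transcripts, 137570 were joined to genes by GENCODE, and at least 99.8% of the counts of each library with them. Counts were summed per gene and rounded, and genes reaching 10 counts in 4 or more libraries were tested with DESeq2 1.42.0 (R 4.3.3, Wald test, all 18 libraries in 1 fit with the 4 groups as levels). A gene was called at a Benjamini-Hochberg adjusted P below 0.05 combined with a fold change from 1.3 upward or 0.7 downward, and an interaction by its adjusted P alone. The adjustment was over the genes left by DESeq2's filters, and a gene without an adjusted P counted as not called. Of the 10938 genes tested, 3301 had an adjusted P in the male and 8598 in the female genotype comparison. The number was 10930 in each sex comparison and 1606 for the interaction. Shares of called genes are of all 10938. Alternatives were TMM or total count size factors, no count filter, edgeR 4.0.16 quasi-likelihood, limma 3.58.1 on log2(TPM + 1), other settings of DESeq2's filters, an effective length offset, fragment length or age as a term, the replicate number as a block and leaving out each library. Fragment length was the median of length less effective length over transcripts of at least 3000 bases. The tests were tested on simulated data, in which DESeq2 recovered more of the changed genes and also made more false calls than edgeR or limma in both genotype comparisons. There limma was given counts scaled to the library total in place of TPM, and fragment length was not varied. The simulation therefore does not bear on the results of limma on TPM. Named genes were all 10 members, up to 5 called genes per comparison from each other list, and the 5 genes most correlated with Apoa4. The members and lists were chosen with earlier results of these data known. The values of 1 gene of the receptor list are not reported here.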

Additional observations from a re-analysis of the deposited data

Results flagged for a closer look

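Of 44 groups of 4 or 5 mice examined for a single mouse far from the rest, 2 held one, and chance gives about 1 in 20. In female PP the lowest Apoc2 value was 305.8 normalized counts, with the other 4 mice at 635 to 720. In the same group the highest count of the overlapping gene Apoc2l was 509, and the sums of both genes were 652 to 815. In male LL the highest Apom value was 466.7, with the other 3 mice at 383 to 394.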

How the results depend on the processing

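Of 1540 alternative values for single genes, 1422 kept their direction and call, 68 moved, 15 lost and 34 gained a call, and 1 reversed, Apob in female PP against male PP with limma on log2(TPM + 1) (0.63 against -0.05). The number of the 10 genes called in male LL against male PP was 1, and 0 with edgeR or limma, and 1 to 1 when single libraries were left out. In female LL against female PP it was 0, and 3 with the 2 groups alone, and 0 to 4 without single libraries, beside 72, 101 and 28 to 270 of all genes. In female PP against male PP it was 0, and 5 with total counts, 1 with the 2 groups alone, 4 with limma and 0 to 1 without single libraries. In female LL against male LL it was 2, and 5 with total counts, 1 with edgeR, 1 with the 2 groups alone, 0 with limma, 1 with the length offset, 0 with fragment length as a term and 1 to 3 without single libraries. The cause was not tested. The interaction stayed at 0 wherever it was fitted, 2 groups alone allowing no such fit. The difference in fragment length without single libraries was -43.2 to -169.6 bases in males and -110.4 to -177.5 bases in females (exact permutation P = 0.00794 to 0.0317).

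Of all called genes, 57.0% were higher in female PP than in male PP, against 94.3% with total counts and 98.1% with limma on TPM. The shares were 54.4%, 88.2% and 84.7% in LL mice, 74.2% and 96.9% by median of ratios and total counts for male genotype, 55.6% and 38.8% for female genotype, and 53.8% and 10.53% for the interaction. Counts of all called genes were 705, 2783 and 4307 in PP mice, 669, 1278 and 451 in LL mice, 31 and 96 for male genotype, 72 and 49 for female genotype and 13 and 19 for the interaction; limma called 0 in the last 3. The replicate numbers did not pair the mice, as the correlation of same-numbered mice was -0.17 to 0.05 in males and -0.10 to 0.16 in females. With the replicate block 1 gene was called in female LL against male LL, and the block changed no other count of members. The groups of 4 and 5 mice and the difference in fragment length limit these results.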
